A study of Homo sapiens with 26 samples.

Results

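HLA class I antigen presentation was followed through 10 of the 15124 genes measured in 786-O, a cell line from a human clear cell kidney cancer. They are the heavy chains HLA-B, HLA-C, HLA-E and HLA-F, the light chain B2M, the peptide loading genes TAP1, TAP2 and TAPBP, and the immunoproteasome subunits PSMB8 and PSMB9. The genes were chosen by name and followed with every probe set that the array annotation assigns to one of them. These were 26 of 54613 probe sets, and 0 of the 26 list several genes. Of the 26, 24 reached the array median on at least 3 of 24 arrays and were tested. The 2 left out were B2M 232311_at, which lay at the floor of 20 on 22 of 24 arrays, and TAP2 208428_at, at the floor on 21 of 24 arrays. Many of the HLA probe sets end in _x_at, the array maker's mark for probes that can also bind related sequences, so a heavy chain signal can include RNA of other heavy chain genes.

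786-O cells lack working VHL, the protein that marks hypoxia-inducible factors for destruction, and therefore keep HIF-2a. Each of 8 groups had 3 arrays. By their titles these are Blk, DMSO (cells mock treated with this vehicle), 40, 41, 76, 77, PRC3 and WT8. The design text names untreated cells, DMSO and 4 HIF-2a inhibitor compounds found in a chemical genetic screen. No title says untreated. Blk was read as the untreated cells and the groups 40, 41, 76 and 77 as the compounds, since no other titles are left for them. PRC3 and WT8 are names that other work uses for 786-O cells with an empty vector and with re-introduced VHL, but the labels here do not say so, nor whether either is 1 clone. The titles pTR and pTV, with 1 array each, are not explained. The sources used here give no doses, treatment times or compound structures. No label calls the 3 arrays of a group separate cultures, so the p-values below measure only the spread between arrays, which may be technical.

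Class I molecules sit on the surface of nearly all nucleated cells and show peptides from inside the cell to CD8 T cells. The peptides are cut by the proteasome, carried into the endoplasmic reticulum by the TAP1-TAP2 transporter and loaded, with the help of tapasin (TAPBP), onto a heavy chain held together with beta-2-microglobulin (B2M). Interferon raises transcription of most of these genes through IRF and STAT factors and NLRC5, and exchanges catalytic subunits of the proteasome for PSMB8, PSMB9 and PSMB10, which gives the immunoproteasome. In renal carcinoma these genes are followed because a tumour cell without class I is not seen by CD8 T cells.

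The promoter sequences are shown because most of these genes hold letters of the kind IRF factors read close to an annotated start. RefSeq promoter windows of GRCh38.p14, from 250 bases before to 50 bases after the start, were at hand for 9 of the 10 genes (11 windows), all but HLA-E. The core AANNGAAA, searched on both strands, occurred in 8 of the 11 windows, 1 for each of 8 genes, against 22.9% of all 34943 windows of the same length. Each segment below is printed 5′ to 3′ on the strand of its gene, with the matched letters in capitals, which read as the reverse complement of the core where the match is on the other strand.
HLA-B (chr6:31357317-31357344, minus strand): ctcccctgagTTTCACTTcttctcccaa
HLA-C (chr6:31272226-31272253, minus strand): ctcccctgagTTTCACTTctcccaacct
HLA-F (chr6:29723268-29723295, plus strand): ctccccagagTTTCTCTTtctctcccaa
B2M (chr15:44711367-44711396, plus strand): ctctaagaAAAGGAAACTGAAAacgggaaa
TAP1 (chr6:32853817-32853846, minus strand): gcggccgcTTTCGATTTCGCTTtcccctaa
TAP2 (chr6:32838780-32838809, minus strand): ggctggggAAGCGAAAGCGAAAgctgcccg
TAPBP (chr6:33314075-33314104, minus strand): ttggaggaAAGTGAAAGTGAAAggaggaag
PSMB8 (chr6:32844030-32844059, minus strand): tctgtggcTTTCGCTTTCACTTcctcctcc
In the heavy chains the core lies at nearly the same place, 148 to 155 bases before the start in HLA-B, 144 to 151 in HLA-C and 149 to 156 in HLA-F. It lies 129 to 142 bases before the start in B2M, 121 to 134 in TAP1 and 49 to 62 in TAP2. In TAPBP it is 5 to 18 bases before the start, and in PSMB8 it reaches across the start. B2M, TAP1, TAP2, TAPBP and PSMB8 hold 2 overlapping cores each, and the heavy chains hold 1. The PSMB9 window holds none, nor do a second window each of TAP1 and PSMB8. PSMB9 and TAP1 are neighbours transcribed away from each other, and the TAP1 letters printed above lie between both genes, outside the PSMB9 window. The longer form GAAANNGAA, which can overlap the core, was found in 6 of the 11 windows, against 8.1% of all. Of letters read by NF-kB, GGGGATTC was found in HLA-B and HLA-C (0.9% of windows) and GGGACTTTC in B2M and TAP1 (0.4%). The CCAAT box was in 6 of the 11 windows, against 34.6% of all. These motifs were picked after the promoters had been read, and a match is a description of letters, not a measured site.

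The deposited signals had 2% trimmed means between 80.1 and 95.5 on the 26 arrays. Array means lay between 140.7 and 141.4, apart from compound 40 replicates 2 and 3 at 163.7 and 171.5. The sources used here do not say why these columns differ. WT8 replicate 3 stood apart in RNA quality, with a 3′ to 5′ signal ratio of 2.37 for actin against at most 1.39 elsewhere and of 1.32 for GAPDH against at most 1.06. The highest correlation between 2 arrays was 0.978. The renal markers PAX8 (760.6 to 1270 over 24 arrays), VIM, KRT8 and KRT18 were above the floor on every array. Of 9 leukocyte markers PTPRC and CD14 were at the floor on 24 of 24 arrays, TYROBP on 20 and CD3E on 18, while CD79A (43.73 to 85.75) and LAPTM5 (25.74 to 63.5) were above it on all 24, and CD2, ITGAM and FCER1G on at least 20. Of 4 endothelial markers VWF was at the floor on 24 arrays, CDH5 on 23 and KDR on 18, and PECAM1 (45.49 to 117.3) on none. As a check of the groups, CCND1, a known HIF-2a target in these cells, read 97.4 ± 5.26 (SD, n = 3) in WT8 against 925 ± 40.6 in PRC3, and VEGFA read 251 ± 67.8 against 1619 ± 665. With DMSO, VEGFA read 1167 ± 256 and CCND1 767 ± 167. VEGFA was lower with compounds 40 (493 ± 206, adjusted p = 0.0366), 41 (275 ± 15.6, adjusted p = 0.000194) and 76 (472 ± 204, adjusted p = 0.0156), and CCND1 with 40 (399 ± 134, adjusted p = 0.0158) and 41 (357 ± 64.9, adjusted p = 0.00172). Compound 77 passed for neither, at 946 ± 146 for VEGFA (adjusted p = 0.907) and 812 ± 74.0 for CCND1 (adjusted p = 0.970). VHL itself (1559227_s_at) read 59.2 ± 14.9 in WT8 and 55.4 ± 24.6 in PRC3, and the sources used here do not say whether this probe set can read an introduced VHL. In bulk RNA, fewer cells of a kind and less RNA per cell cannot be told apart.

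All signals below are quantile-normalized across arrays, are given in replicate order, and are compared only within a probe set. HLA-C, a classical heavy chain that shows peptides to T cells and also binds inhibitory receptors of natural killer cells, had 4 probe sets, of which 216526_x_at was brightest. Its signals were 2991, 3256 and 3268 in untreated cells and 2938, 3361 and 2958 with DMSO. With the compounds they were 2179, 2587 and 2559 for compound 40, 2158, 2818 and 2490 for compound 41, 1942, 2374 and 2423 for compound 76, and 2266, 2905 and 2661 for compound 77. All 12 compound arrays were thus below all 6 arrays of untreated and DMSO-treated cells. PRC3 arrays read 2812, 2523 and 1912, and WT8 arrays 3971, 3045 and 2374. WT8 spread from the highest HLA-C signal of all 24 arrays down to the range of the compounds, and its replicate 3 was the lowest of its group. From high to low the group means ran Blk, WT8, DMSO, 77, 41, 40, PRC3 and 76, and only DMSO and 77 were neighbours whose arrays did not overlap. The other HLA-C probe sets ranged from 1761 to 3624 (208812_x_at), 1263 to 2905 (214459_x_at) and 265 to 719.5 (211799_x_at).

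HLA-B, the other classical heavy chain, had 3 probe sets. Its 211911_x_at read 2551, 2888 and 2861 in untreated cells, 2306, 3071 and 2135 with DMSO, and 1160, 1752 and 1693 with compound 76. The other compounds gave 1522, 1925 and 1913 (40), 1566, 2351 and 2098 (41), and 1493, 2057 and 1872 (77). Compound 41 overlapped DMSO through replicate 2, and the other 3 compounds did not. PRC3 read 2088, 1593 and 1247, below all untreated arrays, and WT8 read 3184, 2559 and 1322. The probe set 209140_x_at moved less: its highest and lowest group means, Blk at 3713 ± 47.9 and compound 76 at 2594 ± 339, were 1.43-fold apart, against 1.80-fold for 211911_x_at and 1.81-fold for 208729_x_at. For 209140_x_at, every group overlapped its neighbour in the order Blk, DMSO, WT8, 40, 77, PRC3, 41 and 76.

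HLA-F, a nonclassical heavy chain that is bound by receptors of natural killer cells, read 791.6, 851 and 808.3 (221875_x_at) in untreated cells and 687.7, 744.4 and 676.9 with DMSO. With compound 40 it read 535.8, 623.4 and 605.5, with compound 41 507.4, 647.7 and 667.3, with compound 76 432.9, 553 and 535.7, and with compound 77 588.7, 629.5 and 598. In this probe set untreated arrays were above all DMSO arrays, and DMSO arrays were above all 12 compound arrays. PRC3 read 600.7, 434.8 and 388.2, below every untreated array, and WT8 read 893.4, 657.8 and 409.3. The separation was not seen in the other bright HLA-F probe set, 204806_x_at, where untreated cells (491.3 to 724.2) overlapped DMSO (457 to 633.2). There DMSO also overlapped compounds 40 (331.2 to 498.5), 41 (339.9 to 531.2), 76 (267.7 to 473) and 77 (392.2 to 527.1). A further HLA-F probe set, 221978_at, stayed between 20 and 51.0 on the 24 arrays.

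HLA-E, which presents leader peptides of other heavy chains to the inhibitory receptor NKG2A, differed from the other heavy chains in its brightest probe set. This contrast was not tested. Its 200905_x_at read 462.9, 544 and 478.7 in untreated cells, 440.3, 532.3 and 489.9 with DMSO, 544, 603.9 and 610.4 with compound 40, and 539.8, 600.1 and 558.7 with compound 41. Arrays of compounds 40 and 41 were above all DMSO arrays, but the differences did not pass the test (compound 40: log2 0.27, SE 0.16, adjusted p = 0.539; compound 41: log2 0.22, SE 0.16, adjusted p = 0.633). Compounds 76 (489 ± 54.8) and 77 (556 ± 94.5) overlapped DMSO, and WT8 read 573 ± 127. All neighbouring groups overlapped, from compound 40 at 586 ± 36.6 down to PRC3 at 477 ± 78.0. Its other probe sets ranged from 225.7 to 390.6 (217456_x_at) and from 96.0 to 220.0 (200904_at) over the 24 arrays. In 217456_x_at the means of compounds 40 (296), 41 (309), 76 (280) and 77 (300) were all below DMSO (313). In 200904_at compound 77 (109) was below DMSO (118), while compounds 40 (160), 41 (148) and 76 (129) were above it.

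B2M, the light chain of class I molecules, differed little between groups. Its 216231_s_at read 6586, 6739 and 7013 in untreated cells and 6935, 6675 and 6828 with DMSO. Compound 40 gave 6018, 5100 and 5855, compound 41 gave 5592, 6265 and 6000, compound 76 gave 5611, 5683 and 6297, and compound 77 gave 5794, 6760 and 6655. In this probe set arrays of compounds 40, 41 and 76 were below all DMSO arrays and those of compound 77 overlapped them. For compound 40 the direction turned with the scaling of the arrays, from log2 -0.27 to 0.05. WT8 read 8242, 7425 and 5814 against 6540, 5555 and 5339 in PRC3. The highest and lowest group means were 1.27-fold apart, and all neighbouring groups overlapped in the order WT8, DMSO, Blk, 77, 41, 76, PRC3 and 40. In the other bright probe set, 201891_s_at, compounds 40 (4510 to 6000), 41 (5399 to 5881) and 77 (5683 to 6018) overlapped DMSO (5741 to 6334). Compound 76 (5379 to 5734) did not. There the direction turned with the scaling for compounds 40 (log2 -0.21 to 0.10) and 41 (-0.09 to 0.08).

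**Figure D1:**
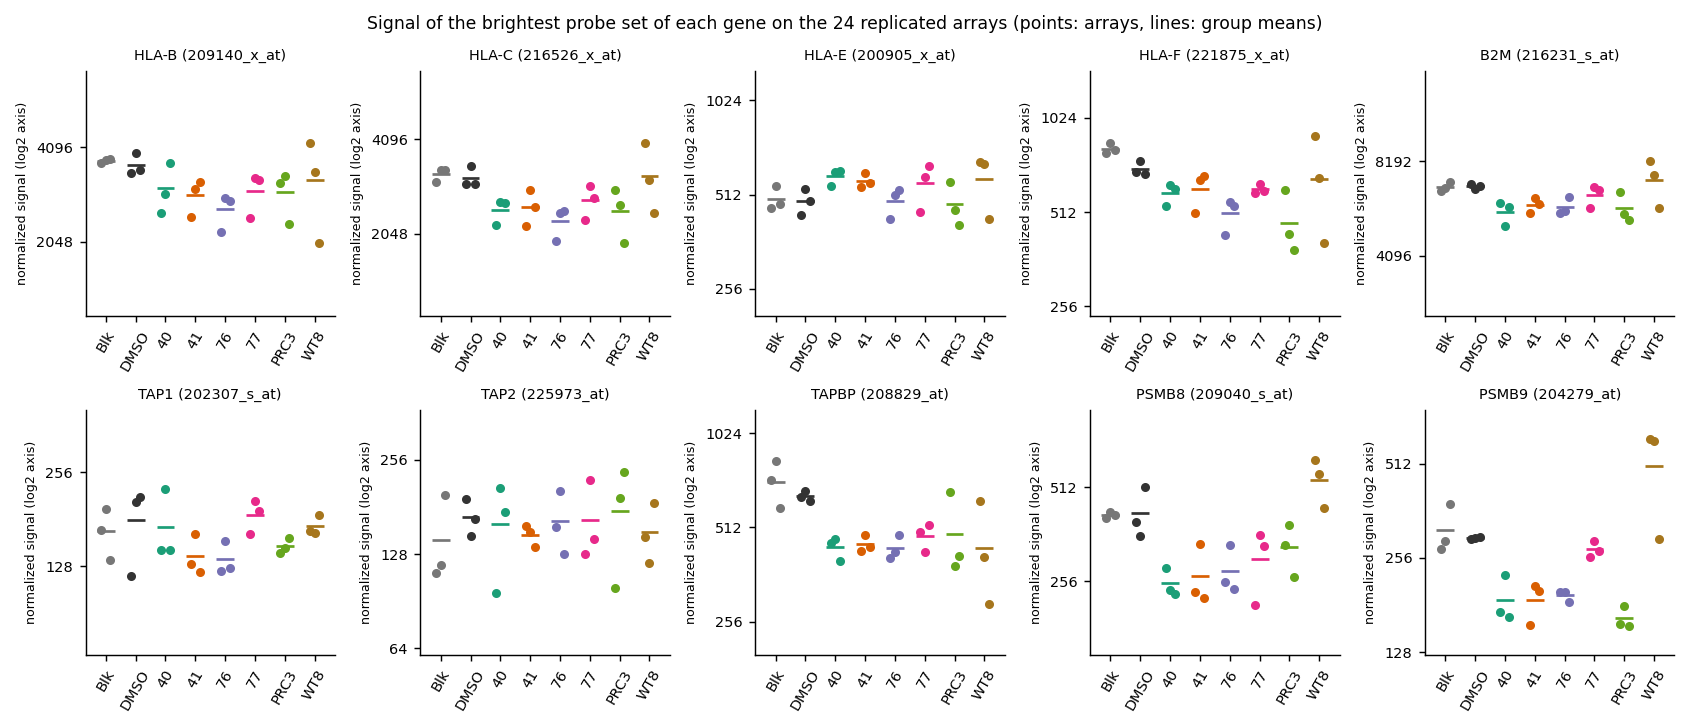
Normalized signal (log2 axis, arbitrary units) of 1 probe set for each of the 10 genes on the 24 replicated arrays; points are arrays, lines are group means, and the x axis gives the group. HLA-C, HLA-F and TAPBP lie lower on all 12 compound arrays than on the 6 arrays of Blk and DMSO. The highest PSMB9 signals are those of WT8 replicates 1 and 2. TAP1 and TAP2 overlap between neighbouring groups, as do HLA-B, HLA-E and B2M. TAPBP groups overlap their neighbours too, but DMSO does so with PRC3 and not with a compound.

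The peptide transporter genes separated the groups little. TAP1 (202307_s_at) read 166.6, 195.7 and 134 in untreated cells and 119.4, 206 and 212.6 with DMSO, against 119.4 to 225.6 over all 8 groups. Compounds 76 (123.5, 154.2 and 126.8) and 41 (130.4, 122.3 and 162.2) had its lowest group means, at log2 -0.37 (SE 0.21, adjusted p = 0.608) and -0.34 (SE 0.21, adjusted p = 0.562) against DMSO. These are of the size of the HLA-C 216526_x_at differences (-0.46 and -0.32), but DMSO itself spread more widely for TAP1 and the arrays overlapped. TAP2 (225973_at) ranged from 96.4 to 234.2, and its group means differed by at most 1.24-fold. Every neighbouring pair of groups overlapped for both genes, as also for HLA-B 209140_x_at, HLA-E 200905_x_at, B2M 216231_s_at and TAPBP 208829_at. For TAPBP 208829_at the neighbour that overlapped DMSO was PRC3, and the compound arrays all lay below the DMSO and untreated arrays. WT8 arrays of TAP1 (165.5, 163.6 and 186.7) were nonetheless all above PRC3 arrays (141.1, 146.3 and 157.6), with a log2 difference of 0.21 (SE 0.21, adjusted p = 0.737). The probe set TAP2 204770_at was the member with the largest difference for any compound, log2 -0.98 (SE 0.36) for compound 41 against DMSO, but with signals of 27.95, 46.96 and 20 against 50.01, 76.12 and 53.38 it was near the floor and did not pass (adjusted p = 0.185).

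TAPBP, the tapasin gene, read 723.9, 835.4 and 590.6 (208829_at) in untreated cells and 638.5, 670.5 and 622.5 with DMSO. In this probe set all 4 compounds lay lower, at 457.1, 471.7 and 400.5 for compound 40, 430.9, 485.8 and 444.5 for compound 41, 410.3, 428.5 and 484.1 for compound 76, and 493.7, 428.8 and 521.8 for compound 77. No compound array reached the lowest of the 6 control arrays. The probe set 1555565_s_at did not show this: it read 169.9, 285.9 and 244.8 with DMSO against 189.7, 220.9 and 291.5 with compound 77, and every compound overlapped DMSO. In 208829_at, PRC3 read 665.4, 387.1 and 415.9, so that 1 array was in the control range and the others in that of the compounds. WT8 read 620.8, 411.9 and 291.7, and the difference from PRC3 did not pass the test (log2 -0.17, SE 0.20, adjusted p = 0.787).

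PSMB8 and PSMB9 encode the catalytic subunits that replace PSMB5 and PSMB6 in the immunoproteasome. PSMB9 (204279_at) had the widest range of the members, with group means 3.07-fold apart. It read 273.5, 289.7 and 379.5 in untreated cells and a narrow 294.6, 295.8 and 298.1 with DMSO. Compound 40 gave 171.3, 226.3 and 166, compound 41 gave 156.3, 208 and 200.5, and compound 76 gave 199.3, 198.6 and 185.5, all below DMSO. Compound 77 gave 258, 290.5 and 268.6, just under the DMSO arrays and above every array of the other compounds. PRC3 was lowest at 157.2, 180 and 154.7, while WT8 read 615.1, 602.3 and 294.8, with its replicate 3 inside the control range. The order was WT8, Blk, DMSO, 77, 76, 41, 40 and PRC3. Arrays of neighbours did not overlap between DMSO and 77 and between 77 and 76.

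PSMB8 (209040_s_at) read 406.3, 425.2 and 417.5 in untreated cells and 395.7, 357.5 and 511.7 with DMSO. With compound 40 it read 283.1, 239.6 and 233.3, with compound 41 236.4, 335.6 and 226.7, with compound 76 254.9, 333.8 and 242.1, and with compound 77 215.8, 360.3 and 330.9. Compounds 40, 41 and 76 lay below all DMSO arrays, and replicate 2 of compound 77 overlapped them. WT8 (622.7, 562 and 437.5) was above all PRC3 arrays (334.4, 388 and 264.9).

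DMSO alone moved no member past the test. In DMSO against untreated cells 0 of 24 member probe sets were called at an adjusted p under 0.05 (limma with Benjamini-Hochberg adjustment over 35013 probe sets), and 0 of 24 had an unadjusted p under 0.05. Over all probe sets 0% were called. The members' median log2 difference was -0.06, against 0 for all probe sets, and 16 of 24 lay below 0.

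Each compound on its own left the members lower than DMSO in most probe sets, but none of these differences passed the test. With compound 40, 0 of 24 were called (0.685% of all probe sets), 5 had an unadjusted p under 0.05, all lower, and the median log2 difference was -0.27. The largest of these was PSMB8, at 252 ± 27.1 against 422 ± 80.3 (1.66-fold lower, log2 -0.73, SE 0.20, adjusted p = 0.104). Compound 41 likewise gave 0 of 24 (2.54% of all probe sets), 4 of them lower at an unadjusted p under 0.05, with a median of -0.29. Its lowest adjusted p was 0.0817, for PSMB8 (266 ± 60.3, 1.59-fold lower), followed by PSMB9 (188 ± 28.0 against 296 ± 1.80, 1.59-fold, adjusted p = 0.0962).

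Compound 76 gave 0 of 24 called (1.35% of all probe sets) but 12 lower at an unadjusted p under 0.05, with a median of -0.43. These 12 included all probe sets of HLA-B and HLA-C, and the largest difference among them was HLA-B 208729_x_at (1121 ± 240 against 1941 ± 188, log2 -0.81, SE 0.29, adjusted p = 0.222). Compound 77 gave 0 of 24 called (0.171% of all probe sets), 1 of 24 at an unadjusted p under 0.05, PSMB8 (log2 -0.50, SE 0.20, adjusted p = 0.533), with a median of -0.11. Among all probe sets an unadjusted p under 0.05 was reached by 11.7% for compound 40, 13.2% for compound 41, 10.4% for compound 76 and 7.63% for compound 77. The 4 comparisons share the same 3 DMSO arrays, so that a high or low DMSO array shifts all of them together. Some summed marker levels also differed from DMSO, although no tested marker was called for any compound against DMSO. The 5 fibroblast markers summed to 232.9 to 286.2 with DMSO, 117.9 to 204.8 with compound 40, 215.7 to 222.1 with 41, 200.1 to 242 with 76 and 197.5 to 226 with 77, and to 176.6 to 233.1 in untreated cells. Fibroblast sums of compound 76 overlapped DMSO, and those of the other compounds did not. The 7 renal markers summed to 12730 to 13570 with DMSO and 11530 to 12010 with compound 76. With compounds 40 (12250 to 13510), 41 (12410 to 13920) and 77 (12520 to 13720) the renal sums overlapped DMSO. The leukocyte and endothelial sums of every compound overlapped DMSO. The part of these markers in the results was not tested.

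Separation of single arrays showed the same direction. Member probe sets with all 3 compound arrays below all 3 DMSO arrays numbered 11 of 24 for compound 40 (7.23% of all probe sets), 10 for compound 41 (9.87%), 14 for compound 76 (8.56%) and 10 for compound 77 (6.65%). With the replicate number of the titles as a block, 2 of 24 were called for compound 41, PSMB9 (adjusted p = 0.0393) and PSMB8 (adjusted p = 0.0484), both lower, against 4.36% of all probe sets. The same-numbered arrays of these groups deviated together, whereas those of compounds 40 and 77 did so less.

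**Figure D2:**
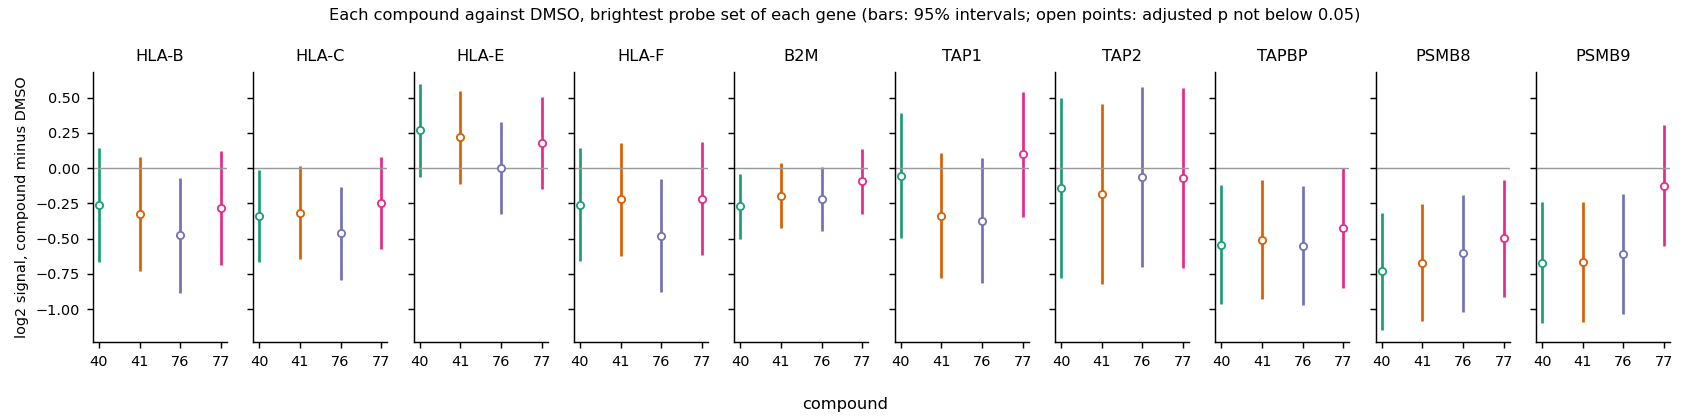
Difference of mean log2 signals between each compound and DMSO (y axis) for 1 probe set of each of the 10 genes; points are estimates from 3 and 3 arrays, bars are 95% intervals, and open points did not pass an adjusted p of 0.05. All 40 points are open; those of HLA-B, HLA-C, HLA-F, B2M, TAPBP, PSMB8 and PSMB9 lie below 0 for each compound, except that B2M with compound 40 turns above 0 under another scaling, and those of HLA-E do not lie below 0.

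No difference between 2 compounds passed the test for a member. Over the 6 pairs of compounds, 0 of 24 member probe sets were called in each pair, while the share of all probe sets called was 0.591% for 40 against 41, 0.126% for 40 against 76, 0.44% for 40 against 77, 0.111% for 41 against 76, 0.451% for 41 against 77 and 0.474% for 76 against 77. At an unadjusted p under 0.05 there were 0 to 2 of 24 members a pair, a share near that of all probe sets (5.5% to 11.9%). The largest difference of the proteasome subunits was PSMB9 in compound 40 against 77, at 188 ± 33.4 against 272 ± 16.5 (log2 -0.55, SE 0.21, adjusted p = 0.295), and over the 6 pairs its 95% intervals ran from -0.98 to 0.42. For TAPBP 208829_at they ran from log2 -0.55 to 0.47, and for HLA-C 216526_x_at from -0.55 to 0.47, so differences of that size between compounds are within what these arrays allow. The sign of many of these small differences turned with the scaling of the arrays.

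The 4 compounds were also compared jointly, a comparison added after values of the single ones had been seen. The mean of the compounds was set against the mean of DMSO and untreated cells, 12 arrays against 6. Of 24 member probe sets 8 were lower and 0 higher, against 5.94% of all probe sets called in either direction. In all, 14 of 24 were lower at an unadjusted p under 0.05, where 9.19% of all probe sets were lower and 8.67% higher. The members' median was -0.28 against 0.01 for all probe sets. The 8 called belong to HLA-B, HLA-C, HLA-F, TAPBP, PSMB8 and PSMB9.

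PSMB8 fell most, to 274 ± 51.7 (SD, n = 12) from 419 ± 51.2 (n = 6), a 1.54-fold difference (log2 -0.62, SE 0.12, adjusted p = 0.00265). TAPBP 208829_at fell to 455 ± 37.1 from 680 ± 88.6 (log2 -0.58, SE 0.13, adjusted p = 0.00618), and PSMB9 to 211 ± 42.3 from 305 ± 37.4 (log2 -0.55, SE 0.13, adjusted p = 0.00931). For PSMB9, compound 77 (272 ± 16.5) was nearer to DMSO (296 ± 1.80) than to compounds 40 (188 ± 33.4), 41 (188 ± 28.0) and 76 (194 ± 7.77). Among heavy chains, HLA-B 211911_x_at fell by 0.57 on the log2 scale (adjusted p = 0.0216) and HLA-C 216526_x_at by 0.36, to 2447 ± 282 from 3129 ± 187 (adjusted p = 0.0262). The other HLA-C probe sets called were 214459_x_at (log2 -0.44, adjusted p = 0.0376) and 208812_x_at (log2 -0.36, adjusted p = 0.0398), and HLA-F 221875_x_at was called with log2 -0.40 (adjusted p = 0.0449). B2M 216231_s_at, at 5969 ± 472 against 6796 ± 161, differed by log2 -0.19 (SE 0.07) and did not pass (adjusted p = 0.109). TAP1, TAP2 and HLA-E had no probe set called, and TAPBP 1555565_s_at (193 ± 41.9 against 221 ± 44.6) did not pass either (log2 -0.20, SE 0.19, adjusted p = 0.656).

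In 4 of the 24, HLA-B 208729_x_at, HLA-C 216526_x_at, HLA-F 221875_x_at and TAPBP 208829_at, all 12 compound arrays lay below all 6 control arrays, which was so for 0.574% of all probe sets. PSMB8, TAPBP and PSMB9 stayed called whichever of the 18 arrays was left out. HLA-B 211911_x_at and HLA-C 216526_x_at were lost without Blk replicate 2, Blk replicate 3 or DMSO replicate 3 (adjusted p between 0.0526 and 0.0863), while HLA-C 208812_x_at was called in 7, 214459_x_at in 6 and HLA-F in 1 of the 18 fits, that without 41 replicate 2. On the signals as deposited 3 of 24 were called, PSMB8, TAPBP and PSMB9.

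**Figure D3:**
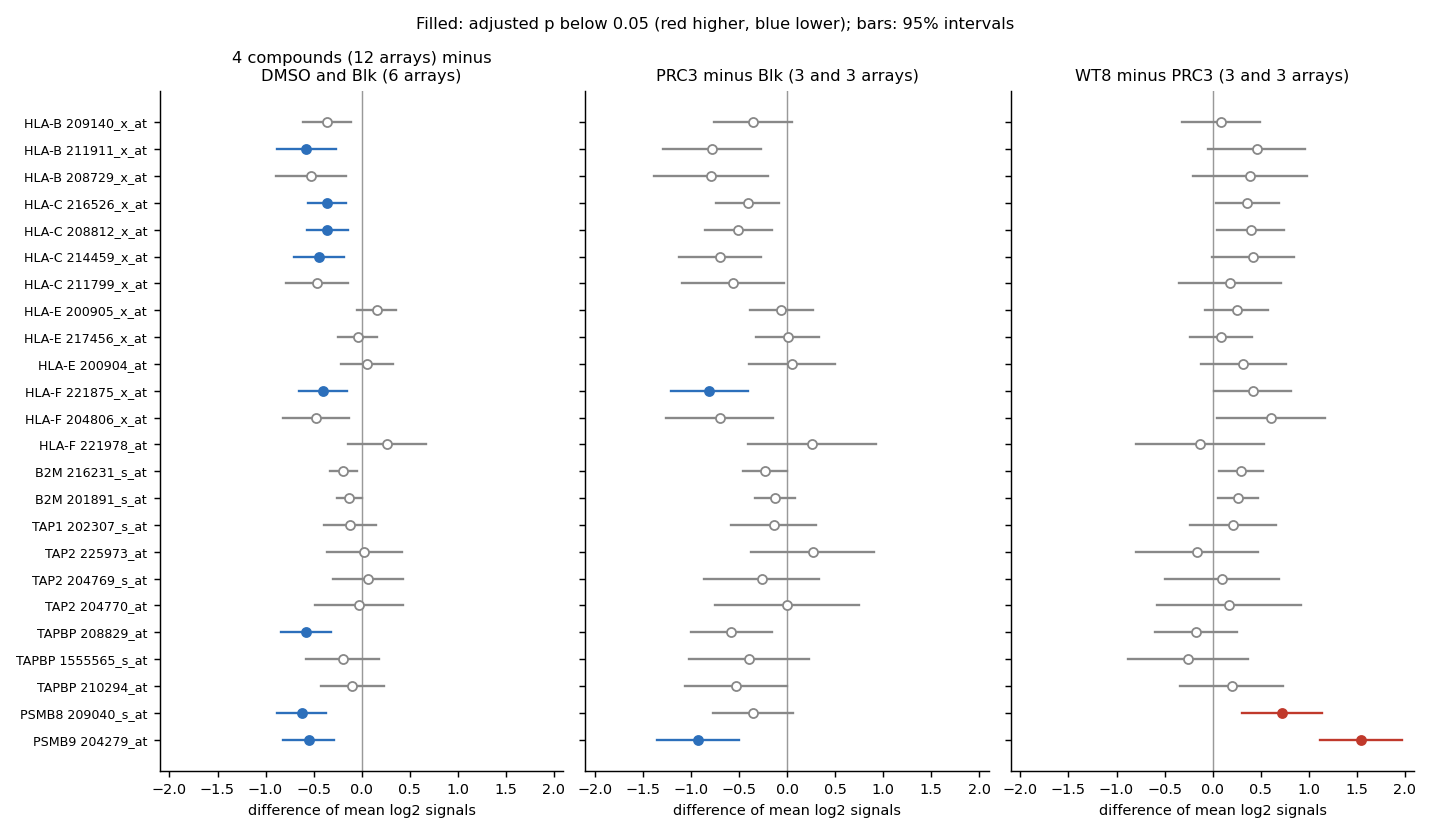
Difference of mean log2 signals (x axis) with its 95% interval for the 24 tested probe sets (y axis) in 3 comparisons; filled points passed an adjusted p of 0.05, blue lower and red higher. The compounds together are lower in 8 probe sets of the heavy chains, TAPBP, PSMB8 and PSMB9, PRC3 is lower than Blk in 2, and WT8 is higher than PRC3 in PSMB8 and PSMB9.

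In WT8 against PRC3 the immunoproteasome subunits PSMB8 and PSMB9 rose, and no other member passed the test. PSMB9 was 504 ± 181 in WT8 against 164 ± 13.9 in PRC3, 2.92-fold higher (log2 1.55, SE 0.21, 95% interval 1.12 to 1.98, adjusted p = 3.60e-05). PSMB8 was 541 ± 94.4 against 329 ± 61.7, 1.65-fold higher (log2 0.72, SE 0.20, adjusted p = 0.0395). These were the 2 of 24 member probe sets called, against 4.56% of all probe sets. In all, 8 of 24 had an unadjusted p under 0.05, all higher, where 7.79% of all probe sets were higher and 7.85% lower: both B2M probe sets, HLA-C 216526_x_at and 208812_x_at, and both bright HLA-F probe sets joined the proteasome subunits. The members' median was log2 0.26, against 0 for all probe sets, and 20 of 24 lay above 0. Of these, HLA-B 209140_x_at and HLA-E 217456_x_at changed sign with the scaling of the arrays.

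PSMB9 and PSMB8, with TAP1, were the 3 of 24 whose WT8 arrays were all above the PRC3 arrays, against 8.18% of all probe sets. Arrays of the same number deviated together in these groups (r of 0.457, 0.107 and 0.346 over all probe sets), so the differences were also read within each number. For PSMB9 they were log2 1.97, 1.74 and 0.93, and for PSMB8 0.90, 0.53 and 0.72. HLA-C 216526_x_at gave 0.50, 0.27 and 0.31, and B2M 216231_s_at gave 0.33, 0.42 and 0.12. In this reading 14 of 24 members were higher in WT8 at all 3 numbers, against 17.4% of all probe sets, and 0 were lower at all 3. HLA-B 209140_x_at and 208729_x_at were below 0 at replicate 3.

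A block on the replicate number with separate terms for PRC3 and WT8, added after these correlations had been seen, called 9 of 24 higher, against 9% of all probe sets. These were PSMB9, PSMB8, HLA-B 211911_x_at, 3 probe sets of HLA-C, 2 of HLA-F and B2M 216231_s_at, and a block shared by all 8 groups called PSMB9 and PSMB8. WT8 replicate 3, the array with the high 3′ to 5′ ratio, was the lowest WT8 array for both subunits, every tested HLA-B and HLA-C probe set and B2M 216231_s_at. Without it 8 of 24 were called higher in place of 2, with PSMB9 at log2 1.90. With replicate 3 left out of both groups 1 of 24 was called, PSMB9 (log2 1.86, adjusted p = 1.88e-06), and PSMB8 was not (log2 0.72, adjusted p = 0.104). PSMB9 was called in 6 of 6 fits that left out 1 array (log2 1.37 to 1.90). PSMB8 was called in 2 of 6, and lost without PRC3 replicate 1 or 3 or WT8 replicate 1 or 2. In a fit of these 6 arrays alone, neither was called (adjusted p = 0.143 for PSMB9 and 0.244 for PSMB8). One fibroblast marker, LUM, was also higher in WT8 (95.4 ± 15.6 against 33.4 ± 8.72, adjusted p = 0.000657). The 5 fibroblast markers together summed to 270.1 to 312.2 in WT8 and 206 to 226.1 in PRC3, with 1 of 4 tested called. The 9 leukocyte markers summed to 292 to 327.1 and 271.9 to 278.6, with 0 of 6 tested called. CD79A read 79.2 ± 2.26 in WT8 and 65.4 ± 0.124 in PRC3 and LAPTM5 56.7 ± 8.40 and 38.6 ± 12.4, while PTPRC and CD14 were at the floor. The 7 renal markers summed to 13670 to 14470 and 13400 to 14380. The part of these markers in the result was not tested.

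**Figure D4:**
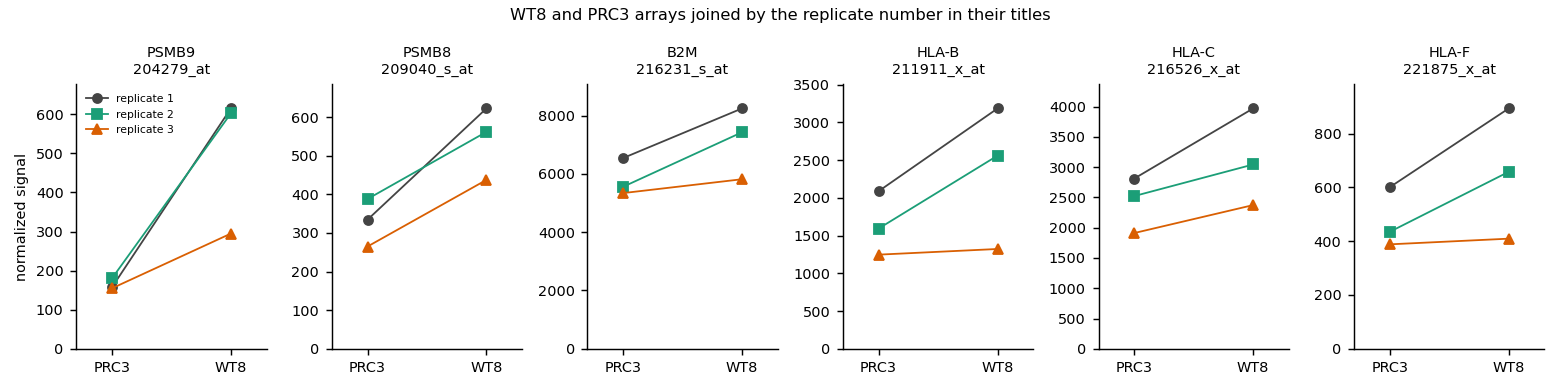
Normalized signal (y axis, linear from 0, arbitrary units) of 6 probe sets on the PRC3 and WT8 arrays (x axis), joined by the replicate number of the titles. Every line is higher at WT8 than at PRC3, most so in proportion for PSMB9, and replicate 3 of WT8 is the lowest WT8 array in each panel. HLA-B is shown by 211911_x_at, its probe set called with the compounds together. Not shown are HLA-B 209140_x_at and 208729_x_at, which were lower in WT8 at replicate 3 (log2 -0.20 and -0.06), and TAPBP, with 208829_at at log2 -0.51 there.

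PRC3 was lower than untreated cells in 2 member probe sets. PSMB9 was 164 ± 13.9 against 314 ± 57.1, 1.90-fold lower (log2 -0.93, SE 0.21, adjusted p = 0.0284), and HLA-F 221875_x_at was 475 ± 112 against 817 ± 30.6, 1.75-fold lower (log2 -0.81, SE 0.19, adjusted p = 0.0410). They were 2 of 24 called, against 1.03% of all probe sets. At an unadjusted p under 0.05, 10 of 24 were lower and 0 higher, including 2 of the 3 HLA-B and all 4 HLA-C probe sets, where 5.89% of all probe sets were lower and 5.28% higher. The largest of those not called were HLA-B 208729_x_at (log2 -0.79, SE 0.29, adjusted p = 0.235) and HLA-B 211911_x_at (log2 -0.78, SE 0.24, adjusted p = 0.149). In 11 of 24 all PRC3 arrays were below all untreated arrays, against 7.43% of all probe sets. PSMB9 passed in 1 of 6 fits that left out 1 array, that without Blk replicate 1, and HLA-F in 1 of 6, that without PRC3 replicate 1. The adjusted p was otherwise between 0.0578 and 0.165, and neither passed on the signals as deposited. WT8 against PRC3 and PRC3 against untreated cells share the PRC3 arrays. A low PRC3 level enters both comparisons, and PSMB9 in WT8 was 504 ± 181, against 314 ± 57.1 in untreated cells, a difference that was not tested.

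The unexplained pTR and pTV arrays, 1 each, allow no test. Of the 24 members 4 were at least 1.5-fold lower on pTR (15.7% of all probe sets) and 0 at least 1.5-fold higher (15.1%), with a median log2 difference of -0.20. The 4 were TAPBP 1555565_s_at (104 against 283), TAPBP 208829_at (461 against 778), and HLA-B 211911_x_at (1169 against 2029) and 208729_x_at (928 against 1565). HLA-C 216526_x_at read 2570 against 2687, and PSMB9 257 against 173.

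Other genes of class I presentation moved in few cases, with each gene read by 1 probe set. Of 11 measured genes of peptide supply and loading, 3 fell with the compounds jointly, against 7.46% of 15124 genes called. They were PSMB10, the other inducible proteasome subunit (203 ± 29.8 against 278 ± 29.1, log2 -0.46, adjusted p = 0.0220), PSME1, part of the proteasome activator PA28 (log2 -0.41, adjusted p = 0.00736), and ERAP2, which trims peptides in the endoplasmic reticulum (log2 -0.48, adjusted p = 0.00670). Of the 3 constitutive subunits that the immunoproteasome replaces, PSMB6, the counterpart of PSMB9, rose slightly (1498 ± 177 against 1248 ± 108, log2 0.26, adjusted p = 0.0445), and PSMB5 and PSMB7 differed by log2 0.17 and 0.28 without passing. Of 5 other class I or class I-like heavy chains 0 were called, among them HLA-G (1034 ± 139 against 1252 ± 95.1, adjusted p = 0.338). Of 14 measured transcription factors of class I genes 0 were called, including NLRC5 (37.9 ± 11.1 against 36.2 ± 10.3) and IRF1 (182 ± 24.4 against 187 ± 22.8).

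In WT8 against PRC3, 1 of the 11 supply and loading genes rose, ERAP2 (692 ± 63.5 against 439 ± 102, 1.61-fold, adjusted p = 0.0202), where 5.98% of all genes were called. PSMB10, the other inducible proteasome subunit, was not called there. None of the 14 transcription factors was called, although IRF1 (218 ± 27.2 against 217 ± 35.1) and NLRC5 (50.6 ± 15.9 against 35.9 ± 13.9) were measured, and 0 of the 3 constitutive subunits passed. Among 7 interferon receptors and kinases IFNGR1, a chain of the interferon gamma receptor, rose 1.46-fold (adjusted p = 0.0109). Class II presentation had 0 of 7 genes called.

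Genes of the interferon response were read from a list that was drawn up with earlier results of these data known. In WT8 against PRC3 the list's median was log2 1.25, against 0.01 for all genes. Of 25 genes 14 rose and 0 fell, where 5.98% of all genes were called in either direction. The largest was RSAD2, an antiviral enzyme, at 309 ± 139 against 26.1 ± 5.87. CMPK2, which lies beside RSAD2 in the genome, was at the floor on all PRC3 arrays and at least 10.8-fold higher in WT8 (221 ± 58.5 against the floor of 20). IFI44L (6.09-fold), OAS2 (4.32-fold), OAS1 (3.21-fold) and IFI44 (3.10-fold) followed. In PRC3 against untreated cells 1 of 25 was called, CMPK2, lower (1.39% of all genes), but the list's median was log2 -0.68, and these low PRC3 arrays are shared with the comparison of WT8 and PRC3.

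With the compounds together, 5 of 25 fell and 1 rose, where 7.46% of all genes were called in either direction. OAS3, which senses double-stranded RNA, fell to 194 ± 36.8 from 405 ± 58.6 (log2 -1.07, adjusted p = 1.66e-06), and MX1, OAS1, OAS2 and the chemokine CXCL10 fell as well. IFIT2, an interferon-induced protein that binds RNA, rose to 241 ± 124 from 115 ± 41.2 (log2 0.99, adjusted p = 0.00822). Against DMSO alone, OAS3 fell with compounds 40 (0.846% of genes called), 41 (3.34%) and 76 (1.78%), and IFIT2 rose with compounds 41 (3.56-fold) and 76 (2.85-fold). JAK1 (log2 -0.36, adjusted p = 0.0187) and IFNAR2 (log2 -0.29, adjusted p = 0.0163), 2 of 7 measured interferon receptors and kinases, also fell with the compounds together. So did CTSS, the lysosomal protease cathepsin S of the class II pathway, by 1.25 on the log2 scale (adjusted p = 0.00240), the 1 of 7 class II genes called.

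Across the 24 arrays the members, each read by its brightest probe set, differed in how closely they moved together. HLA-B, HLA-C and HLA-F correlated with each other at r of 0.839 to 0.882, PSMB8 with PSMB9 at 0.776, and B2M with HLA-C at 0.839 and with PSMB9 at 0.783. These correlations are descriptions over arrays that share treatment groups, and those among HLA probe sets also share sequence. HLA-E correlated with the other heavy chains at 0.458 to 0.480. TAP2 was at or below 0.143 with every other gene, and TAP1 reached 0.354 at most. With other probe sets, TAP1 reached 0.413 with HLA-F 204806_x_at and 0.4 with TAP2 204769_s_at. With the mean of the 10 standardized signals, r was 0.966 for HLA-C, 0.861 for HLA-F, 0.86 for HLA-B, 0.841 for B2M, 0.794 for PSMB9, 0.756 for PSMB8, 0.627 for TAPBP, 0.497 for HLA-E, 0.475 for TAP1 and -0.08 for TAP2.

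**Figure D5:**
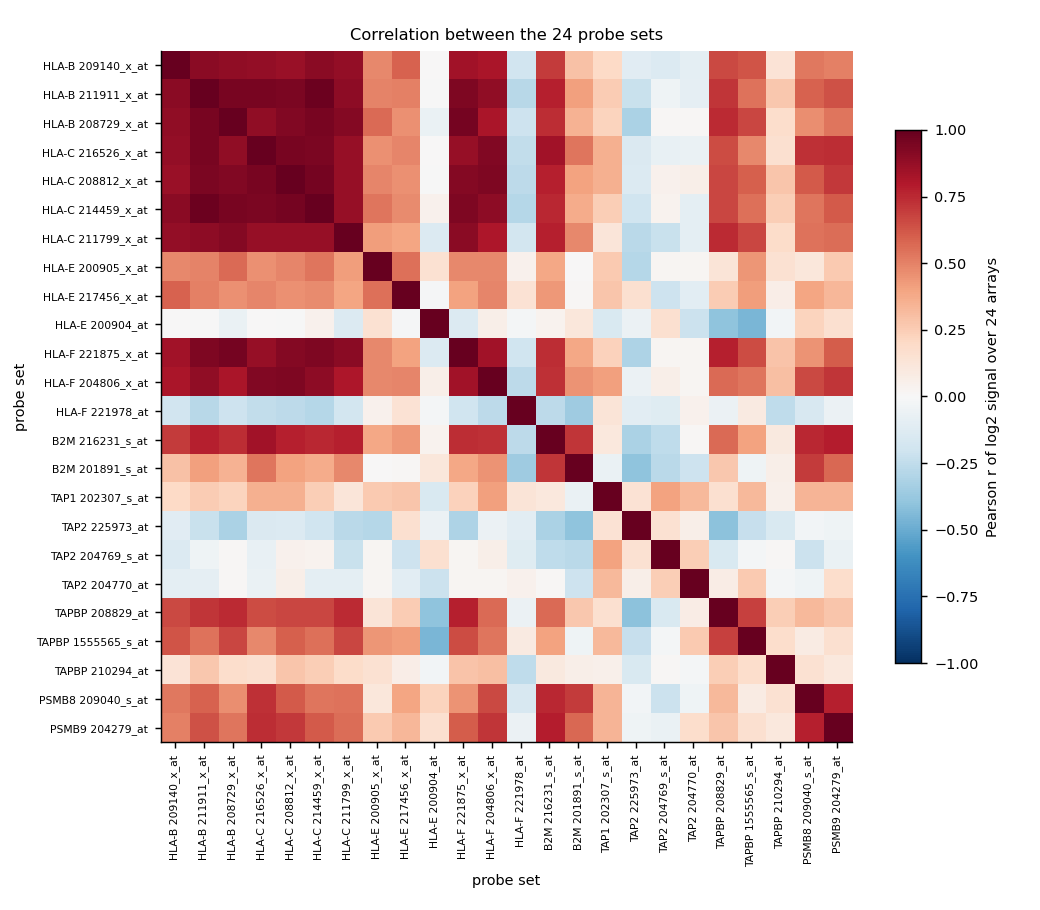
Pearson correlation (colour) of log2 signals over the 24 replicated arrays between the 24 tested probe sets (both axes). Probe sets of HLA-B, HLA-C and HLA-F form a block of high values, with which TAPBP 208829_at (0.567 to 0.78), PSMB9 (0.504 to 0.738), PSMB8 (0.448 to 0.732) and B2M 216231_s_at also correlate, while those of TAP1, TAP2 and the near-floor HLA-F 221978_at and TAPBP 210294_at hold lower values.

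Among 7129 other genes whose brightest group reached the 70th percentile of signal, the 6 most like the members' mean over the 24 arrays were the class I pseudogene HLA-J (r = 0.827), PSMB10 (0.812), PARP14 (0.773), GSTK1 (0.762), CTSS (0.761) and PDZK1IP1 (0.757). The HLA-J probe set is also of the _x_at kind and can bind RNA of the heavy chains.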

How the data were processed

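RNA of 786-O cells and the PRC3 and WT8 groups was measured on 26 Affymetrix arrays. The deposited values are MAS5 signal intensities per probe set, per the submitters' processing notes and the values. Per the labels, the authors set signals below 20 to 20 and above 16000 to 16000 and dropped probe sets with a ratio under 3 or a difference under 100, but 45.5% of the deposited values are below 20, so neither step shows in this table. Here 62 control probe sets were set aside, the 26 arrays were quantile-normalized, floored at 20 and taken to log2. The fit kept the 35013 of 54613 probe sets whose signal reached the median of the array on 3 or more of 24 arrays. limma 3.58.1 (R 4.3.3; lmFit, eBayes with a trend) was fitted to the 8 groups together, with 16 residual degrees of freedom and Benjamini-Hochberg adjustment over 35013 probe sets. A probe set was called at an adjusted p under 0.05. The script was tested on simulated data first. The annotation gives 1 gene for 41091 probe sets, of which 41037 were found in RefSeq. For lists, each gene is represented by the brightest of the probe sets that name it alone. Named were all member probe sets, and of each other list the called genes, up to 6 by size, or the brightest where none was called. Arrays number 3 a group, which limits the precision.

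Same-numbered arrays were checked for pairing by the correlation of their deviations from group means. It was above 0.1 at all 3 numbers for DMSO with Blk (0.146 to 0.293), for 41 with DMSO (0.172 to 0.206), for 76 with DMSO (0.184 to 0.275) and for WT8 with PRC3, but not for 40 with DMSO (lowest 0.0769), 77 with DMSO (lowest 0.067) or PRC3 with Blk (lowest 0.00842). The members and lists were chosen with earlier results of these data known.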

Additional observations from a re-analysis of the deposited data

How the results depend on the processing

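Of 5324 member values recomputed under other settings, 0 called values changed sign, 96 lost a call and 28 gained one. The counts of called members moved as follows, and the cause was not tested unless fewer or more probe sets or arrays entered by construction. In PRC3 against Blk the 2 calls became 0 on signals as deposited, 0 with arrays scaled to 1 median, 0 without the filter, 0 with only the groups compared, 1 without a variance trend, and 0 to 1 leaving out 1 array. In WT8 against PRC3 the 2 calls became 1 on signals as deposited, 1 with median scaling, 1 without the filter, 0 with only the groups compared, 1 without a trend, 1 without replicate 3 of both groups, and 1 to 8 leaving out 1 array. With the compounds together the 8 calls became 3 as deposited, 3 with median scaling, 3 without the filter, 13 with only the groups compared, 4 without a trend, and 3 to 8 leaving out 1 array. For compound 41 the 0 calls became 1 with only the groups compared, 2 with DMSO and Blk averaged as control, and 0 to 1 leaving out 1 array. For compound 76 they became 1 with only the groups compared and 1 with the averaged control, and for compound 40, 2 with the averaged control. The replicate block shared by all groups gave 2 calls for compound 41, 2 for PRC3 against Blk, 2 for WT8 against PRC3 and 8 for the compounds together, and it changed no other count; the block with sublines apart gave 9 for WT8 against PRC3. Scaling moved the median of all probe sets by at most 0.11 on the log2 scale, in 40 against 41. Probe sets near the floor (HLA-F 221978_at, TAP2 204770_at, TAPBP 210294_at) have only a coarse level.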
